A study of Mus musculus with 42 samples.

Results

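The epithelial serpins of clade B described here are Serpinb13, Serpinb3a, Serpinb3c, Serpinb2, Serpinb11, Serpinb12 and Serpinb5, which are 7 of the 20018 genes that could be named on the array. They were taken by gene symbol, and they were picked because they stood out in the variation of the forestomach arrays, with Serpinb13, Serpinb3a and Serpinb3c named as leading its main axis. The spread of the genes over the forestomach arrays is therefore a description and not a finding. Messenger RNA was measured in forestomach, lung and liver of adult male Muta™Mouse of about 11 weeks, a transgenic strain built for mutation assays that all groups share. The mice received olive oil (vehicle, D0) or BkF, which is benzo(k)fluoranthene, one of the polycyclic aromatic hydrocarbons, by oral gavage each day for 28 days at 25 (low dose, D1), 50 (medium dose, D2) or 100 mg/kg-bw/day (high dose, D3). Tissues were taken 72 hours after the last dose, and RNA came from randomly cut pieces of tissue. The 42 arrays came from 15 mice, with 4, 3, 4 and 3 forestomachs, 4, 3, 4 and 4 lungs and 4, 2, 3 and 4 livers at D0, D1, D2 and D3. Each mouse is a separate animal, and the question asked of these arrays was which genes BkF changes in each tissue.

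Serpins are protease inhibitors that act as a bait: the target protease cuts a loop of the serpin, the serpin snaps into a new fold, and the protease is trapped. Members of clade B lack a classical secretion signal and work mostly inside cells. Several of them are made in the upper layers of stratified squamous epithelium, the kind that lines the mouse forestomach, skin and esophagus, where they meet cathepsins, trypsin-like proteases and plasminogen activators. A low value in a piece of tissue can come from fewer cells of a type or from less RNA in each cell, and these cannot be told apart here.

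The 7 genes lie side by side. In the RefSeq annotation of GRCm38.p6, 10 protein-coding genes follow each other on chromosome 1 from Serpinb5 to Serpinb2, all 10 are clade B serpins, and the others are Serpinb3d, Serpinb3b and Serpinb7. RefSeq promoter windows of 300 bases, 250 before and 50 after the annotated start, were found for 6 of the 7 genes, and Serpinb13 was not matched. Shown are Serpinb3a and Serpinb3c, which lead the group, Serpinb11, and Serpinb5, whose level varied least. They lie in GRCm38.p6 at chr1:107052254-107052553 on the minus strand (Serpinb3a), chr1:107278322-107278621 on the minus strand (Serpinb3c), chr1:107362064-107362363 on the plus strand (Serpinb11) and chr1:106860925-106861224 on the plus strand (Serpinb5). Capitals mark letters that match, on either strand, the AP-1 motif TGANTCA, the C/EBP motif TTGCNNAA, the TATA box TATAAA, the KLF motif CACCC or the core GCGTG to which the aryl hydrocarbon receptor, the sensor of BkF-like hydrocarbons, is known to bind.
Serpinb3a: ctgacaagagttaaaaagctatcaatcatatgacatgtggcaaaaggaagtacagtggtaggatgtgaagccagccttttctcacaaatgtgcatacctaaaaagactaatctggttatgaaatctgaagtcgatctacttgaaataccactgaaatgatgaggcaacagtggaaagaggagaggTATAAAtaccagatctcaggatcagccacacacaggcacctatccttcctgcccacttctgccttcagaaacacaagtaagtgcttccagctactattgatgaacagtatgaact
Serpinb3c: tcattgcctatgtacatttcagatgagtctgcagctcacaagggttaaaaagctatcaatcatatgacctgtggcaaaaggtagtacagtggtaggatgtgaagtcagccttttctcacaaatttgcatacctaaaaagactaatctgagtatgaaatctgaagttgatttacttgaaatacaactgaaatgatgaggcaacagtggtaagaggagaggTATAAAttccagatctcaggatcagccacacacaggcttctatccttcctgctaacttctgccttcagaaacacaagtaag
Serpinb11: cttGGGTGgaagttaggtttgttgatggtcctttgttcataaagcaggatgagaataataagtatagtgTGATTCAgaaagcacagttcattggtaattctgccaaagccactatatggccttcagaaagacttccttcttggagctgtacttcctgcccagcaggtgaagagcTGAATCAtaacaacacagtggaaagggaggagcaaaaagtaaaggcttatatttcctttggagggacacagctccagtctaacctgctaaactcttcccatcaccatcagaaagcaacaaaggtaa
Serpinb5: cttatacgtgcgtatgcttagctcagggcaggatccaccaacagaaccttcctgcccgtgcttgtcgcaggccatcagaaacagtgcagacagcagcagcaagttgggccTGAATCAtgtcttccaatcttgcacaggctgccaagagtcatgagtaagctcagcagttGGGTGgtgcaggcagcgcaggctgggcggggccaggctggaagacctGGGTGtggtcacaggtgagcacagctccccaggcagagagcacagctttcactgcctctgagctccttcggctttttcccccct
The windows of Serpinb3a and Serpinb3c were 75.1% identical over 334 aligned columns, and that of Serpinb3c was 90% identical to the window of Serpinb3b. Both carry the TATA box letters, 65 and 31 bases before the annotated start, and none of the AP-1 letters. In the counts that follow, a gene counts if any of its windows holds the letters, and Serpinb12 and Serpinb2 have 2 windows each, while the shares are of single windows, so the units differ. The AP-1 letters occurred in the windows of 4 of the 6 genes, Serpinb11, Serpinb12, Serpinb2 and Serpinb5, against 7.81% of all 32851 windows. The TATA box letters also occurred in 4 of the 6 genes, against 13.6% of all windows. The C/EBP letters occurred in 2 of the 6 genes, against 10.8% of all windows, and the KLF letters in 3 of the 6, against 57.5%. The letters GCGTG occurred in 0 of the 6 genes, against 32.4% of all windows, which says only that these letters are not in these windows. Matches are descriptions of sequence and not of binding. The sequences of the array probes were not used, so it was not checked how far a probe for Serpinb3a, Serpinb3b or Serpinb3c also takes up RNA of its near copies.

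Every value below is a log2 ratio of the sample over a universal reference RNA made from cell lines of the mouse, normalized by loess within each array, so each unit is a factor of 2. The reference RNA held little of some serpins. Its signal was well above background on 1 of 14 forestomach arrays for Serpinb13 and on 2 of 14 for Serpinb3a, so the ratios of these probes rest on a dim denominator, and levels are not compared between probes. Each forestomach array had 15633 to 25605 probes well above background, each lung array 22607 to 33382 and each liver array 21359 to 32078. The filter for a measurable probe passed all 7 serpins in forestomach, 2 in lung (Serpinb3c and Serpinb2) and 0 in liver. The tissues matched their labels by marker genes. The mean of 12 squamous keratins was 3.73 to 4.98 on every forestomach array, the mean of 5 lung markers 5.70 to 6.81 on every lung array, and the mean of 5 liver markers 7.45 to 8.37 on every liver array. Some arrays stood apart and are given beside the results they touch. Of 14 forestomachs, 9 carried much RNA of the glandular stomach, with list means of 4.34 to 5.44, and 5 carried less, with 0.32 to 1.34. The lung of 1 medium-dose mouse carried squamous and skeletal muscle RNA, and that of 1 low-dose mouse had a glandular stomach mean of 3.18.

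The serpins were abundant in forestomach and near or below background elsewhere. In the 4 vehicle mice, all 7 were higher in forestomach than in lung and than in liver, by 4.63 to 6.64 and by 4.54 to 6.64 on the log2 scale, and the forestomach values lay above all values of the other tissues. Serpinb3c was above background on 4 of 4 vehicle lungs and Serpinb2 on 2 of 4, and the other genes were above background on 0 vehicle lungs and all 7 on 0 vehicle livers, so most of these differences run against values at background. Their sizes can be read only as bounds. By normalized sample signal, forestomach lay at least 18.4-fold (Serpinb11) to 217-fold (Serpinb5) above the genes at background in lung. Against liver it lay at least 18.2-fold (Serpinb11) to 212-fold (Serpinb5) above.

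**Figure D1:**
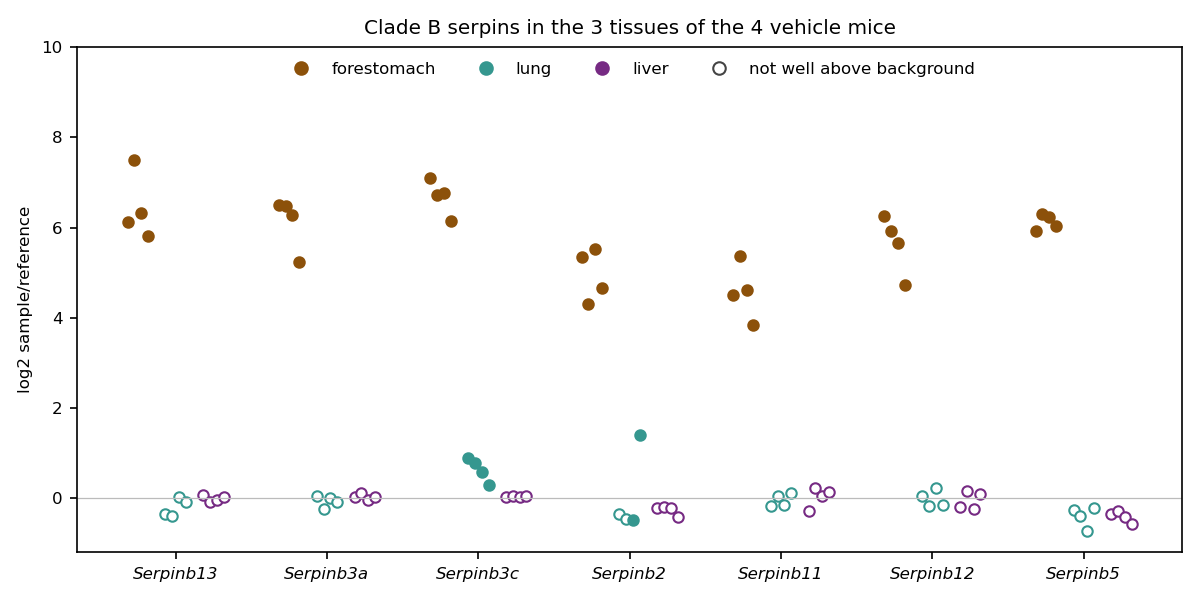
Log2 ratio of sample over reference (vertical axis) of the 7 serpins (horizontal axis) in forestomach, lung and liver of the 4 vehicle mice, 1 point a mouse, with open points not well above background. All forestomach points lie above 3.8, and the highest lung point is Serpinb2 of mouse 4, at 1.39.

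Serpinb13, known as headpin, an inhibitor of cathepsins K and L, was at 6.12, 7.50, 6.32 and 5.81 in the forestomachs of vehicle mice 1, 2, 3 and 4. It was not well above background in any of their lungs or livers. Serpinb3a, a mouse counterpart of the human squamous cell carcinoma antigens, was at 6.51, 6.48, 6.27 and 5.24 in the same forestomachs and likewise not above background in lung or liver. Serpinb3c, of the same subfamily, was the exception in lung. It was above background on all 15 lung arrays, at 0.88, 0.79, 0.58 and 0.30 in the vehicle mice, against 7.10, 6.72, 6.77 and 6.14 in their forestomachs, a difference of 6.04. In liver it was not above background on any array.

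Serpinb2, plasminogen activator inhibitor type 2, was at 5.34, 4.31, 5.53 and 4.66 in the vehicle forestomachs and 4.93 lower in lung. Of the 4 vehicle lungs, mouse 4 stood apart at 1.39, while the other 3 lay at or below -0.35. Serpinb12, an inhibitor of trypsin-like proteases, was at 4.73 to 6.26 in the vehicle forestomachs. Serpinb11 was at 4.51, 5.37, 4.61 and 3.84 there. Serpinb5, known as maspin, a clade B serpin without protease-inhibiting activity, was at 5.93 to 6.30. None of these 3 was above background in the vehicle lungs or livers.

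A gene was called where limma gave a Benjamini-Hochberg adjusted p not above 0.05 together with a change of 1.5-fold or more. All 7 genes were called higher in both contrasts, at adjusted p from 1.85e-12 to 1.08e-06 against lung and from 4.82e-13 to 2.21e-07 against liver. Calls are common between tissues: 29.9% of 37646 probes were called against lung and 33% against liver, of all probes 13.6% and 18.1% as higher in forestomach, and in 17.9% and 22.6% all 4 forestomachs lay above all 4 samples of the other tissue. All but Serpinb3c and Serpinb2 entered the contrast with lung through the forestomach arrays alone, and all 7 did so against liver, so a difference was built into their passing the filter and these calls are no support for one. Lung and forestomach shared slides, while liver was on slides of its own, so liver and slide cannot be told apart. The sizes depended on the normalization. With median centring in place of loess the differences were 2.58 to 4.25 against lung and 2.59 to 4.39 against liver, and with the scanner software's ratios 5.82 to 10.18 and 5.87 to 10.18, with all 7 genes called each time. Under median centring the 5108 higher and 6147 lower probes against lung became 1179 and 9307, and the 6814 and 5611 against liver became 2777 and 13268.

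Within the forestomach, the serpins were the lowest in low-dose mice, next in medium-dose mice, and at or near the vehicle level in high-dose mice. This order of low below medium below high held in the group means of all 7 genes. The vehicle group had the highest mean for 6 of them and the high dose for Serpinb3a. Neighbors in this order overlapped in all 21 pairs of neighboring groups. The median difference from vehicle was -3.04 for D1, -2.10 for D2 and -0.33 for D3, beside a median over all 25305 probes of -0.02, 0.02 and 0.0037.

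**Figure D2:**
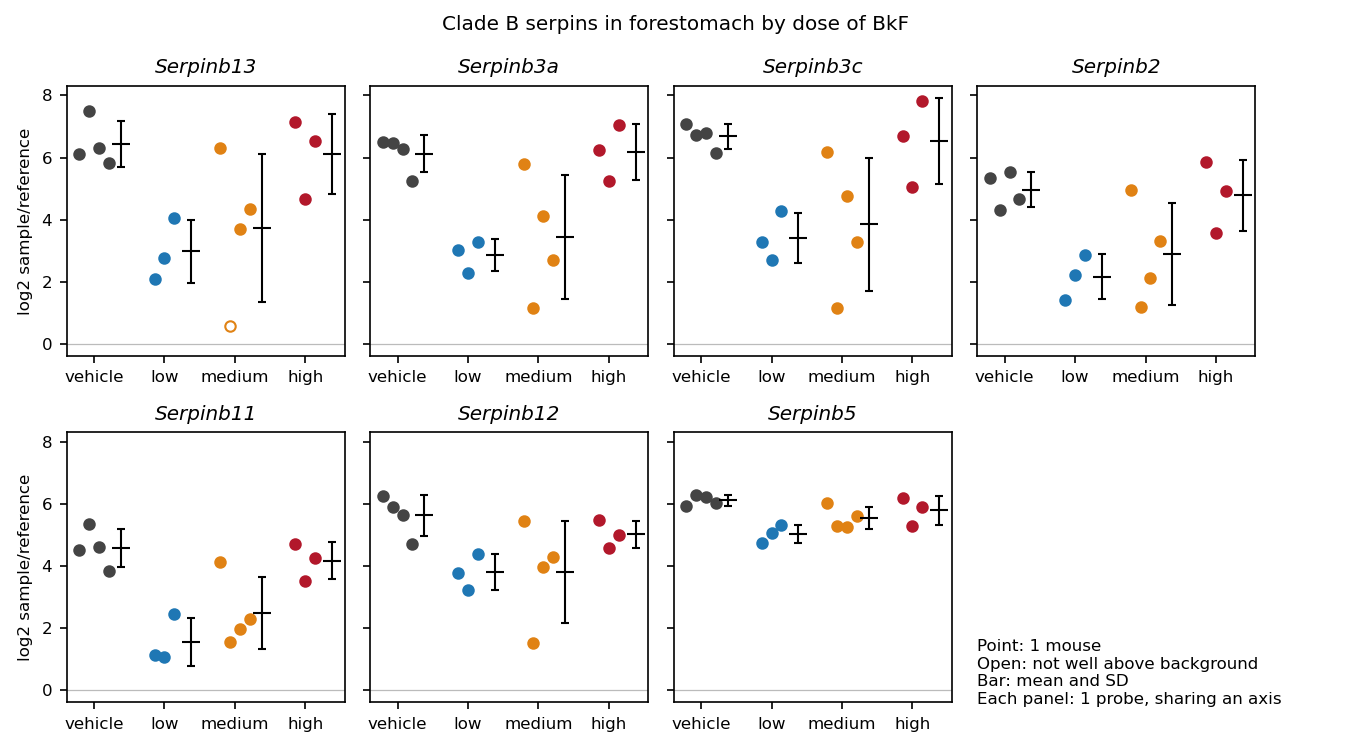
Log2 ratio of sample over reference (vertical axis) of each serpin in forestomach by dose group (horizontal axis), 1 point a mouse, with mean and SD as bars and the open point not well above background. For all 7 genes each of the 3 low-dose points lies below each of the 4 vehicle points, medium-dose mice spread widely, and high-dose points overlap the vehicle points.

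Serpinb13 was at 2.08, 2.77 and 4.06 in low-dose mice 7, 8 and 9. In medium-dose mice 11, 12, 13 and 15 it was at 6.30, 0.57, 3.70 and 4.33, and in high-dose mice 16, 17 and 20 at 7.14, 4.65 and 6.52. The low-dose values all lay below the lowest vehicle value of 5.81, the medium-dose values ran from not well above background (mouse 12) to the vehicle range (mouse 11), and 2 of the 3 high-dose mice lay within the vehicle range. The low-dose mean of 2.97 ± 1.00 (SD, n = 3) stood against 6.44 ± 0.74 (n = 4) in the vehicle group, a difference of -3.47 (SE 1.05), or 11.1-fold. It was -2.23 with median centring and -2.11 with scanner ratios.

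Serpinb3a and Serpinb3c moved nearly as 1 gene, with a Pearson r of 0.99 over the 14 forestomach arrays, given as a description. Serpinb3a was at 3.02, 2.29 and 3.27 in the D1 mice, at 5.80, 1.15, 4.10 and 2.70 in the D2 mice and at 6.25, 5.23 and 7.03 in the D3 mice. For Serpinb3c the D1 mice were at 3.29, 2.68 and 4.26, the D2 mice at 6.18, 1.15, 4.77 and 3.27 and the D3 mice at 6.70, 5.06 and 7.81. For both, low-dose mouse 8 and medium-dose mouse 12 were the lowest of their groups, and high-dose mouse 20 was the highest of all 14 mice. The low-dose means were 9.63-fold and 9.65-fold below vehicle, differences of -3.27 and -3.27. Over the other ways of processing these differences were as small as -2.18 for Serpinb3a and -2.38 for Serpinb3c.

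Serpinb2 was at 1.40, 2.22 and 2.86 at the low dose and at 4.96, 1.18, 2.10 and 3.32 at the medium dose. High-dose mouse 16 had the highest Serpinb2 of the 14 mice, at 5.85, with mice 17 and 20 at 3.58 and 4.92. Urokinase (Plau), the protease that Serpinb2 is known to inhibit, ran from -1.30 in high-dose mouse 16 to 1.62 in medium-dose mouse 12, the mice in which Serpinb2 was highest and lowest. Its group means were -0.18 for vehicle, -0.15 for low, 0.70 for medium and -0.39 for high dose.

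Serpinb11 was at 1.14, 1.06 and 2.45 at the low dose, 8.20-fold below vehicle by the group means. The low-dose difference of Serpinb11 was -3.04 here, -1.64 with median centring and -1.77 with scanner ratios. In D2 it was at 4.15, 1.54, 1.96 and 2.28, and in D3 at 4.72, 3.53 and 4.26. The medium-dose mouse in the vehicle range was mouse 11, as for Serpinb13. Serpinb12 ran from 3.23 to 4.39 in D1, from 1.53 to 5.47 in D2 and from 4.60 to 5.47 in D3, against 4.73 to 6.26 in vehicle mice. Its second probe gave a low-dose difference of -2.67 against -1.84 for the first, in the same direction, and the first probe gave -1.08 with median centring and -0.72 with scanner ratios.

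Serpinb5 kept closest to 1 level, between 4.75 and 6.30 over the 14 mice, a range of 1.55 against 4.31 to 6.93 for the other 6 genes. It was at 4.75, 5.06 and 5.32 at the low dose and at 5.93, 6.30, 6.24 and 6.03 in vehicle mice, a difference of -1.08 (SE 0.24), or 2.12-fold, which was -0.56 with scanner ratios. At the medium dose it differed from vehicle by -0.58, with mouse 11 at 6.03 and the other 3 between 5.25 and 5.60.

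**Figure D3:**
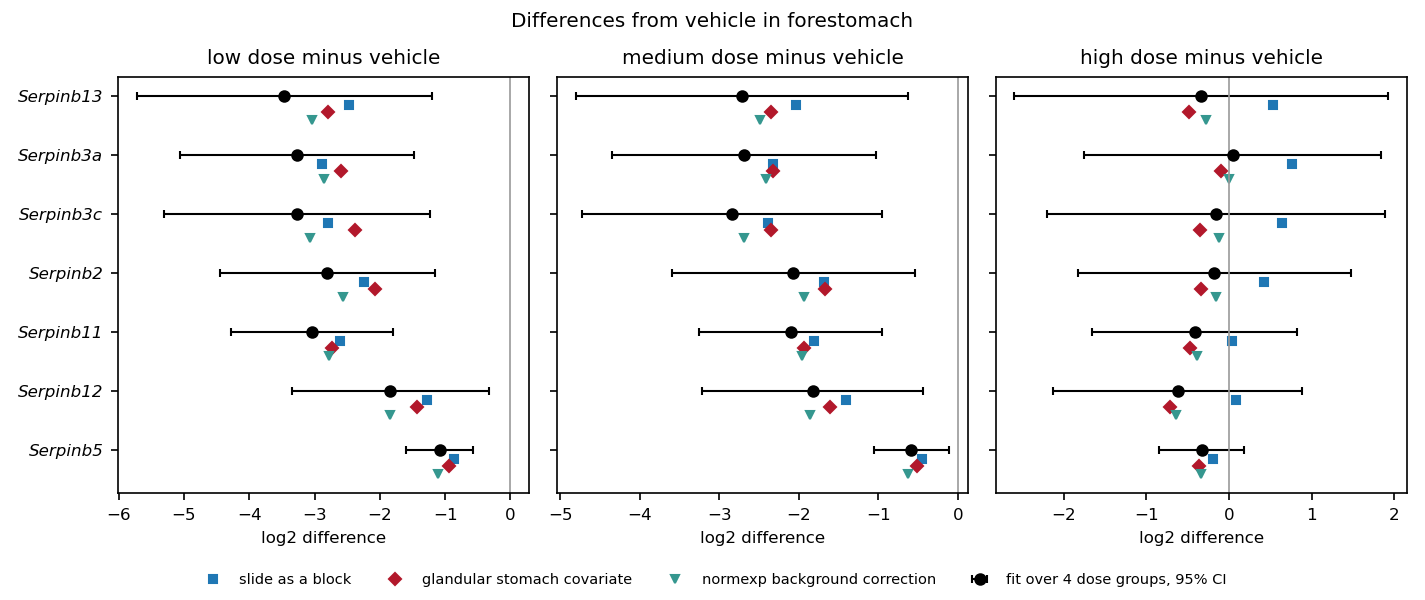
Log2 difference from vehicle (horizontal axis) of each serpin (vertical axis) at the low, medium and high dose, with the 95% confidence interval of the fit over the 4 dose groups (black) and the value with slide as a block, with the glandular stomach list as a covariate and with normexp background correction. All low-dose and medium-dose values lie below 0, and at the high dose the intervals span 0.

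No serpin was called at any dose. limma gave adjusted p from 0.259 to 0.345 for D1, 0.483 to 0.591 for D2 and 1.00 for D3, where the interval of the Serpinb13 difference ran from -2.59 to 1.93. It called 0% of the 25305 forestomach probes at each dose and in the linear dose trend, where the serpins had adjusted p of 1 and 0 of 7 had an unadjusted p under 0.05, beside 2.81% of all probes. At an unadjusted p under 0.05, 7 of 7 serpins passed at the low dose beside 12.1% of all probes, 7 of 7 at the medium dose beside 7.59%, and 0 of 7 at the high dose beside 2.2%. All 7 had every low-dose mouse below every vehicle mouse, beside 9.21% of all probes, and 0 of 7 at the medium dose, beside 2.16%, and 0 of 7 at the high dose, beside 1.11%. The genes were picked on these arrays and move together, so these counts are not independent evidence. When limma was run with no arrays other than those of D0 and D1, 6 of the 7 were called lower, all but Serpinb12, at adjusted p from 0.0246 to 0.0634 over the 7, beside 1.17% of all probes.

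Slide and dose were partly confounded. Slide 1 held 1 forestomach each of the low, medium and high dose (mice 8, 12 and 17) and none of the vehicle group, and these had the lowest serpin means of their dose groups, at 2.76, 1.77 and 4.57. On slides 3 and 4, which held 1 low-dose and 1 vehicle forestomach each, all 7 serpins were lower in the low-dose mouse, by a median of -1.75 and -3.49. Medium-dose mice were lower for 7 genes on slide 2, 7 on slide 3 and 5 on slide 4, with medians of -2.58, -1.37 and -0.38. High-dose mice were lower for 5 genes on slide 2 and 1 on slide 3. With slide as a block the median low-dose difference was -2.48, with limma adjusted p from 0.278 to 0.513.

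Over all 14 forestomachs the serpins varied together from mouse to mouse. The 21 pairs among the 7 genes had Pearson r from 0.74 to 0.99, with a median of 0.90, over arrays that share slides and tissue makeup. The mean of the 7 genes ran from 6.09 in vehicle mouse 2 to 1.77 in medium-dose mouse 12, which was the lowest of the 14 mice for 5 of the 7. All 3 low-dose mice were among the lowest 6, at 3.80, 2.78 and 2.76, with medium-dose mice 12, 13 and 15. The main axis of the 14 arrays held 51.2% of the variance of 25271 probes. On it Serpinb13 ranked 167, Serpinb3c 169, Serpinb3a 230, Serpinb2 301, Serpinb11 500, Serpinb12 705 and Serpinb5 3384 by weight, the measure for which the genes were picked. The axis also separated the arrays by RNA of the glandular stomach. The 5 forestomachs with little of it scored 53.8 to 65.3 on this axis, and the other 9 scored -73.7 to 11.2. Vehicle mice 2 and 3, with serpin means of 6.09 and 5.91, scored -10 and -6.22.

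**Figure D4:**
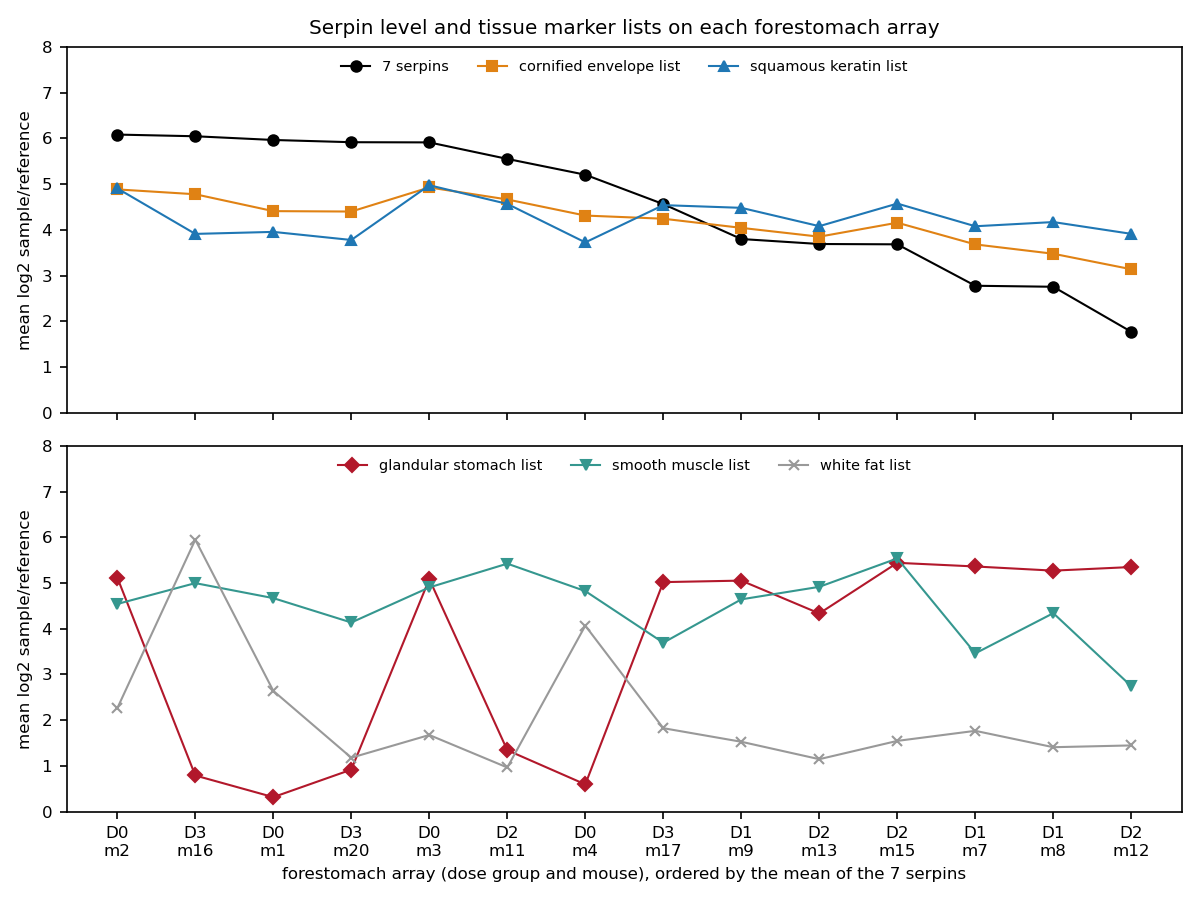
Mean log2 ratio (vertical axis) of the 7 serpins and of marker lists on each of the 14 forestomach arrays (horizontal axis, dose group and mouse), ordered by the serpin mean. The serpin line falls from 6.09 to 1.77, and the cornified envelope list is also lowest on the last array, at 3.14, against at most 4.93. The squamous keratin list, a mean of genes that moved in both directions, stays between 3.73 and 4.98. The glandular stomach list is below 1.4 on 5 arrays and above 4.3 on 9.

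RNA of other tissue layers moved with the serpins in part. Of the 14 forestomachs, 5 had a mean of 13 glandular stomach genes of 0.32 to 1.34 and 9 of 4.34 to 5.44, and the 5 had serpin means of 5.21 to 6.05. The 9 had serpin means of 1.77 to 6.09, of which vehicle mice 2 and 3 were at 6.09 and 5.91, high-dose mouse 17 at 4.57, the 3 low-dose mice at 2.76 to 3.80 and 3 medium-dose mice at 1.77 to 3.69. All 3 low-dose forestomachs were among the 9, against 2 of 4 in the vehicle group. Glandular genes with wide ranges were Cblif (gastric intrinsic factor), from 0.03 to 8.29, Ctse (cathepsin E), from -1.14 to 6.38, and Gkn2 (gastrokine 2), from 0.94 to 8.15. At the low dose 13 of the 13 genes were higher and 0 were called, with a median difference of 2.55. With the list mean as a covariate the median low-dose difference of the 7 serpins was -2.38 (-3.04 without it), with adjusted p from 0.775 to 0.803, and the median medium-dose difference was -1.94. Smooth muscle RNA was lowest in medium-dose mouse 12, where the mean of 8 genes was 2.74 against 3.46 to 5.54 elsewhere, and Synpo2, Des and Tagln were at their lowest there, at 2.94, 1.92 and 2.13. At the low dose 8 of 8 smooth muscle genes were lower, with a median difference of -0.50, at the medium dose 4 of 8, with -0.0028, and at the high dose 8 of 8, with -0.42. The white fat genes that passed the filter had median differences of -1.09, -1.03 and 0.61 for D1, D2 and D3, with 4, 4 and 2 of 5 lower. The list means over the 14 mice ran from 0.97 to 5.95 for white fat, and those of leukocyte genes from -0.02 to 0.67, pancreatic acinar genes from -0.16 to 1.80 and skeletal muscle genes from 0.43 to 2.07. The part of these in the serpin differences was not tested beyond the covariate.

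Squamous cells themselves were present on every array. Keratins of the basal layer had narrow ranges: Krt5 ran from 3.35 to 4.10, Krt14 from 3.04 to 4.02 and Krt15 from 3.25 to 4.03 over the 14 mice. Other genes known from the basal layers ranged more widely. Trp63 (the transcription factor p63) ran from 3.17 to 6.96 and averaged 6.09 in vehicle and 4.45 in low-dose mice, and Dsg3 (desmoglein 3) ran from 1.35 to 4.63 and averaged 3.36 and 1.99. Krt4, a keratin of the layers above the base, ran from 1.22 in mouse 12 to 6.63 in vehicle mouse 2, with group means of 6.31 for vehicle and 3.25 for low dose. Krt16 and Krt6b, keratins known for stressed or healing epithelium, ran from 0.66 to 4.44 and from 3.98 to 7.73, with Krt16 at its highest in mouse 12. Of the 12 keratins, 0 were called at the low dose, 7 were lower and 5 higher, and their median difference was -0.15. Of the 12, 4 had an unadjusted p under 0.05, beside 12.1% of all probes. At the medium dose 5 were lower and 7 higher, with a median of 0.09. At the high dose 12 of 12 were lower, 0 were called, and the median was -0.34, beside -0.33 for the serpins.

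The list of cornified envelope genes, named for the protein shell of the uppermost squamous cells, also holds Trp63, Dsg3, Dsc2 and Klf4, which are not shell proteins. Of its 20 genes that passed the filter, 17 were lower and 3 higher at the low dose, 0 were called, and the median difference was -0.96. Of the 20, 11 had an unadjusted p under 0.05, beside 12.1% of all probes. Rptn (repetin) differed from vehicle by -2.12 at the low dose and Lce3a (a late cornified envelope protein) by -1.18. Dsc2 (a desmosomal cadherin) went the other way, with a difference of 1.95. Tgm1 and Tgm3, the transglutaminases that cross-link the shell, differed by -1.57 and -2.09.

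Of the 10 genes with the pattern most like the mean of Serpinb13, Serpinb3a and Serpinb3c, at r from 0.97 to 0.98 over 14 forestomach arrays and 13349 genes, 1 is a small proline-rich protein, Sprr2i, and 1 is sciellin (Scel), both of the cornified envelope. Sprr2i averaged 6.02 in vehicle and 2.71 in low-dose mice, and Scel 5.95 and 3.09. The others were Endou, a poly(U)-cutting endonuclease, Rnf227, Xkrx, Nmu (the neuropeptide neuromedin U), Nlrp10, Elovl4 (which elongates very long fatty acids), the kallikrein protease Klk8 and Tprg. Nmu averaged 6.19 in vehicle and 2.59 in low-dose mice, and Elovl4 8.04 and 5.06. All 10 were picked for likeness to a mean that was itself low at the low dose. Their lower low-dose means follow from that choice and are no further result. Among the serpins outside the leading 3, r with that mean was 0.94 for Serpinb11, 0.93 for Serpinb12, 0.92 for Serpinb2 and 0.83 for Serpinb5.

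The rest of the clade was described in the same way. Of 20 other clade B serpins, 9 passed the filter in forestomach, 7 were lower and 2 higher at the low dose, 0 were called, and the median difference was -0.32. Serpinb7 (megsin), which lies between Serpinb11 and Serpinb2, went from 3.02 ± 0.94 (SD, n = 4) in vehicle to 0.51 ± 0.26 (n = 3) in low-dose mice, with means of 0.98 in D2 and 2.33 in D3. Serpinb10 and Serpinb8, the next clade B genes beyond Serpinb2, differed by -1.76 and -0.62 at the low dose. Serpinb3b was dim, from -0.08 to 1.14. Clade B serpins known from leukocytes and many other cells had these ranges: Serpinb1a (which inhibits neutrophil elastase) ran from 1.08 to 2.51, Serpinb9 (which inhibits granzyme B) from -0.24 to 0.77, Serpinb6a from -0.96 to 0.17, Serpinb6b from -1.39 to -0.38 and Serpinb6c from -1.44 to 0.04.

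Proteases that epithelial serpins meet went in both directions. Of 17 that passed the filter, 11 were lower and 6 higher at the low dose, 0 were called, and the median difference was -0.43. Of the 17, 8 had an unadjusted p under 0.05, beside 12.1% of all probes. The transmembrane trypsin-like protease Tmprss11a ran from 1.42 to 6.30 and averaged 5.34 in vehicle and 1.88 in low-dose mice. Klk5 and Klk8, kallikreins that cut the junctions of shedding squamous cells, differed by -1.29 and -2.16. Cathepsin L (Ctsl) and cathepsin K (Ctsk), which Serpinb13 is known to inhibit, differed by -0.94 and -0.47, and matriptase (St14) by 0.12.

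In lung the serpins gave 1 array that stood apart. The lung of medium-dose mouse 12 had Serpinb3c at 4.48, Serpinb2 at 4.25, Serpinb3a at 4.16, Serpinb5 at 4.06, Serpinb12 at 3.04, Serpinb11 at 1.69 and Serpinb13 at 0.53, all above background. On the other 14 lungs Serpinb3a, Serpinb5, Serpinb11, Serpinb12 and Serpinb13 were above background on 0 arrays, Serpinb3c lay between 0.26 and 0.88, and Serpinb2 between -0.56 and 1.39. The same mouse had the lowest forestomach serpins, so that Serpinb3c, Serpinb2 and Serpinb3a were 3.33, 3.07 and 3.00 higher in its lung than in its forestomach. Serpinb11 was at 1.69 in lung and 1.54 in forestomach of this mouse, and Serpinb5 differed by -1.23. Serpinb13 was not above background in its forestomach, so its tissues are not compared.

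**Figure D5:**
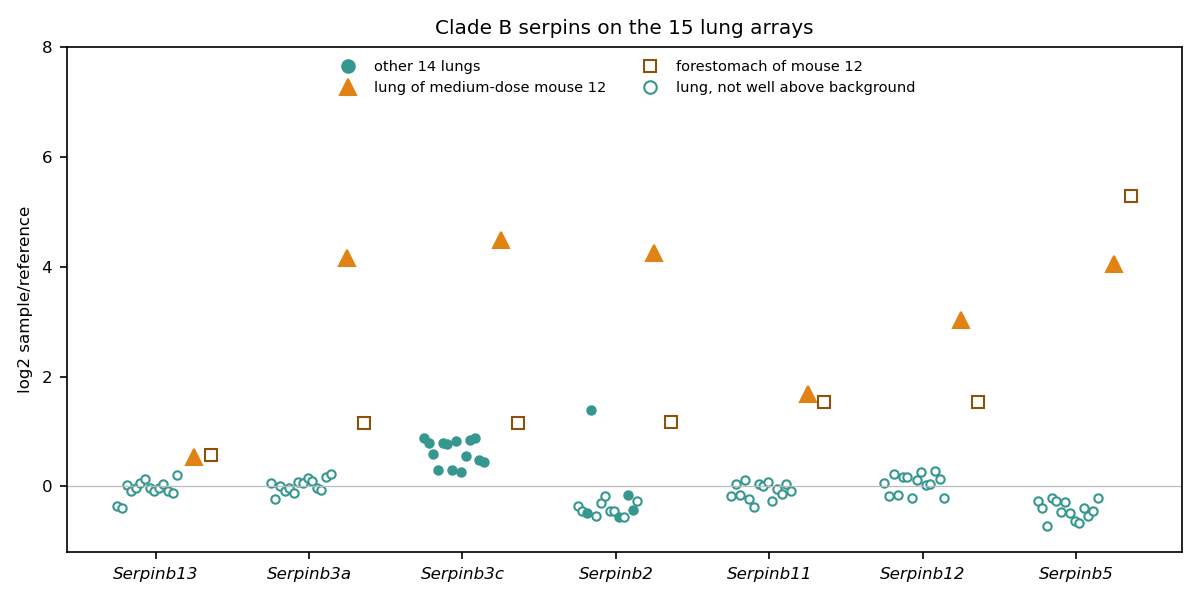
Log2 ratio of sample over reference (vertical axis) of the 7 serpins (horizontal axis) on the 15 lung arrays, with the lung of medium-dose mouse 12 as triangles, the other 14 lungs as circles (open where not well above background) and the forestomach of mouse 12 as open squares. The triangles of Serpinb3a, Serpinb3c, Serpinb2, Serpinb12 and Serpinb5 lie between 3.0 and 4.5, above all circles.

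That lung also held squamous RNA. All 12 squamous keratins were above background there, with a mean of 2.25 against -0.49 to -0.08 on the other lungs, and the mean of 22 cornified envelope genes was 2.58 against 0.21 to 0.33. The mean of 8 skeletal muscle genes was 4.56 against -0.98 to -0.42, that of 13 leukocyte genes 1.65 against 0.92 to 1.35, and that of the 19 proteases 1.099 against 0.27 to 0.46. The 5 lung markers were at 5.70 there, below all other lungs, which reached 6.81, and the 13 glandular stomach genes at 0.44, within the 0.12 to 3.18 of the others. The part of these tissues in the serpin values was not tested.

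Serpinb3c and Serpinb2 were the serpins that could be tested in lung, and 0 of 2 were called at any dose, beside 0% of 32697 probes for D1, 0.0153% for D2 and 0.0336% for D3. At the medium dose they differed from vehicle by 0.90 (Serpinb3c) and 0.68 (Serpinb2), and without mouse 12 by -0.09 and -0.51. The high-dose effect was also set against that in lung in 1 fit over all 42 arrays. Only Serpinb3c and Serpinb2 were above background in vehicle and high-dose lungs, Serpinb2 on 2 of 4 in each. Their high-dose effects differed between the tissues by -0.18 (95% interval -2.23 to 1.88) and 0.20 (-1.98 to 2.39), with limma adjusted p of 1.00, beside 0.0106% of 37646 probes called.

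In liver no serpin passed the filter, and none was tested there. Of the 7 genes on 13 livers, 1 value was above background: Serpinb2 in high-dose mouse 17, at 1.76, against -0.63 to -0.18 on the other 12. That liver had a mean of 8 skeletal muscle genes of 3.41 against -0.91 to -0.66 on the other 12, a mean of 7 white fat genes of 3.03 against 0.26 to 1.90, and squamous keratins at -0.19, within the -0.21 to -0.01 of the others. It was also above all other livers in the lists of pancreatic acinar (1.22 against at most 0.24), glandular stomach (0.64 against 0.29), smooth muscle (0.22 against -0.97) and leukocyte genes (0.14 against -0.05). The part of these in the Serpinb2 value was not tested.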

How the data were processed

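Total RNA of forestomach, lung and liver was labeled with Cy5 and hybridized with Cy3-labeled universal reference RNA to 2-color Agilent arrays, without dye swaps. The authors deposited Feature Extraction output (per the file headers version 11.0.1.1 in liver, version 10.7.3.1 in the other tissues), in which spot intensity is the median signal of each channel and the scanner's own ratio is given as log10, and a table of normalized log2 ratios. Here log2(Cy5/Cy3) was taken from the unsubtracted median intensity, loess normalized within each array with control spots at weight 0 and outlier spots left out, and averaged per probe. Probes were named by RefSeq accession, which gave 20018 genes. Probes well above background in the sample channel on at least 3 forestomach, 3 lung or 2 liver arrays were kept.

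limma 3.58.1 in R 4.3.3 was fitted over all dose groups of a tissue, and over all 42 arrays for tissue contrasts, with Benjamini-Hochberg adjustment over all probes. Calls required both an adjusted p not above 0.05 and a change of 1.5-fold or more. Where a gene had more than 1 probe, the brightest by mean forestomach sample signal was used. Genes named outside the 7 were the 10 with the highest Pearson r to the mean of Serpinb13, Serpinb3a and Serpinb3c, and members of gene lists, taken for their role or for the range of their values. The members and lists were chosen with earlier results of these data known. Alternatives covered background correction, normalization, filter, scanner ratios, the authors' ratios, slide, mouse, a glandular stomach covariate and leaving out each mouse. The slide block in the tissue contrast was chosen after seeing the data.

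Mouse numbers mark the same animals across tissues. Deviations from the group means of the same mouse correlated at -0.03 to 0.34 between forestomach and lung over 14 pairs and at -0.16 to 0.07 between forestomach and liver over 12 pairs. The number of arrays limits the precision, and the scripts were tested on simulated data. The simulated noise was independent between probes, unlike that of these arrays. That test therefore checks the scripts and not the power in these data.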

Additional observations from a re-analysis of the deposited data

Results flagged for a closer look

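Within dose groups of 4 arrays, the highest or lowest value was set against Dixon's 95% critical value for 26 combinations of gene and group with at least 1 array above background, and 7 passed it. Chance passes about 1 in 20, but Serpinb3a, Serpinb5, Serpinb11, Serpinb12 and Serpinb13 entered in medium-dose lung only through the array of mouse 12, so the 7 cannot be set against that share. Of these, 6 were the lung of medium-dose mouse 12, far above the other 3 medium-dose lungs, with Serpinb3c at 4.48, Serpinb2 at 4.25, Serpinb3a at 4.16, Serpinb5 at 4.06, Serpinb12 at 3.04 and Serpinb13 at 0.53. They come from 1 array and are not independent of each other. The other was Serpinb2 in the lung of vehicle mouse 4, at 1.39, with the nearest vehicle lung at -0.35. In that lung the squamous keratins were at -0.30, above the -0.49 to -0.36 of the other vehicle lungs, as were the other clade B serpins (0.44 against 0.30 to 0.41) and the proteases (0.426 against 0.336 to 0.424), and the skeletal muscle list at -0.68, within their -0.97 to -0.63. White fat (0.67 against 1.76 to 1.82), smooth muscle (0.90 against 1.21 to 1.40), glandular stomach (0.14 against 0.29 to 0.42), pancreatic acinar (-0.14 against -0.04 to -0.01) and liver genes (0.55 against 0.84 to 1.45) lay below theirs. The part of these in the Serpinb2 value was not tested.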

How the results depend on the processing

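Over the alternatives run, 212 counts of called serpins stayed as given and 1 moved. This was the low dose in forestomach, where a fit on those 2 groups alone called 6. The 212 include liver counts, which were fixed at 0 unless the filter was dropped, since no serpin passed it. They also include the contrasts between vehicle tissues, whose calls are no support for a difference. The number of unmoved counts is therefore no measure of stability. Differences of single serpins kept direction and call in 612 cases, became called in 6 and changed sign in 29, all of them at the high dose in forestomach or in lung. At the high dose Serpinb3a went to -0.58 with scanner ratios, -0.0048 with normexp and -0.10 with the glandular covariate. With median centring Serpinb3c went to 0.0394 and Serpinb2 to 0.10, and with a slide block Serpinb13 went to 0.54, Serpinb3c to 0.64, Serpinb2 to 0.43, Serpinb11 to 0.035 and Serpinb12 to 0.0812. In lung at the low dose Serpinb3c went to 0.0305 with scanner ratios and 0.0052 with median centring. The cause was not tested. Sizes moved most with median centring and scanner ratios, by more than 1.5 times for several serpins at the low dose and between tissues. The medium-dose differences in forestomach also shrank over the ways of processing. Their smallest sizes were -1.67 for Serpinb13, -1.695 for Serpinb3a, -2.13 for Serpinb3c and -1.31 for Serpinb2. For Serpinb5, Serpinb11 and Serpinb12 they were -0.35, -0.98 and -0.50. Leaving out each mouse gave high-dose ranges of -0.85 to 0.39 for Serpinb13, -0.38 to 0.52 for Serpinb3a, -0.80 to 0.58 for Serpinb3c and -0.71 to 0.42 for Serpinb2. In lung it gave, for Serpinb3c and Serpinb2, -0.13 to 0.14 and -0.53 to 0.10 at the low, -0.0857 to 1.32 and -0.51 to 1.13 at the medium and -0.0928 to 0.10 and -0.55 to 0.0725 at the high dose. At the low dose in forestomach it left 0 serpins called, with adjusted p from 0.131 to 0.832. Counts over all probes moved more: the 0 called at the low dose in forestomach became 333 in the fit on those 2 groups, and over alternatives and left-out mice the 5 in lung at the medium dose ranged from 0 to 11, the 11 at the high dose from 3 to 26, and the 4 in the high-dose effect between tissues from 0 to 8. With mouse as a replicate block in the tissue contrasts, 7 serpins were called against lung and 7 against liver, so the pairing changed no call of a serpin. Over all probes 11346 and 12553 were called, beside 11255 and 12425 without the block. The authors' log2 ratios were used for forestomach and lung alone, since over probes their liver columns correlated with the scanner ratios at -0.00301 to 0.000338. Serpins in liver, and 5 of them in lung, were too close to background to test.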
